A study of Mus musculus with 9 samples.

Results

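The beta-tubulins are the family of proteins that pair with alpha-tubulin to form the subunits of microtubules. The 8 mouse genes examined were Tubb1, Tubb2a, Tubb2b, Tubb3, Tubb4a, Tubb4b, Tubb5 and Tubb6, of 18193 genes with a probe set of their own on the array. Every probe set that the platform annotation assigns to exactly 1 of these genes was taken, which gave 16 probe sets. The family was selected on the difference between the groups compared here, whose results were known. The differences of its members between the groups are therefore a description. Where members past limma's threshold are counted, the count describes the values that chose them and tests nothing.

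Epidermis was taken from mice at 8 weeks of age, of the hairless SKH1 background after 5 backcross generations, 6 days after tamoxifen treatment. All mice were homozygous for a floxed Alox12b allele and were given 3 intraperitoneal injections of 1 mg tamoxifen. The inactivated group (Alox12b fl/fl Cre, genotype p/p +/cre) consisted of 5 mice that also carried Cre-ERT2, a recombinase that needs tamoxifen, under the K14 promoter of basal keratinocytes. The controls (Alox12b fl/fl, genotype p/p +/+) were 4 littermates without Cre, so that loss of Alox12b cannot be told apart from the presence of active Cre. Each mouse gave 1 Affymetrix array, and the values are on a log2 scale. An array value depends on the probes as well as on the transcript, so levels of single genes are compared between arrays. Sums over marker lists and places relative to the array median or lower quartile do join different probe sets, and are rough.

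Mammalian cells hold several beta-tubulin isotypes, whose sequences differ mainly in the acidic tail at the end of the protein. Tubb5 and Tubb4b are made in most tissues, Tubb3 is best known from neurons, and Tubb1 from platelets and their precursors. Tubb2a, Tubb2b and Tubb4a are abundant in the nervous system, and Tubb6 is found in many tissues at lower levels. In keratinocytes microtubules leave the centrosome as the cells differentiate and become arranged along the cell cortex. Cells also adjust tubulin mRNA to the amount of free tubulin, through recognition of the nascent protein by Ttc5.

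The stretch before the start of transcription is shown for 2 members that were higher in the inactivated group (Tubb2a and Tubb3) and for 2 that showed little difference (Tubb4b and Tubb5). The 250 bases come from RefSeq. Such sequences were examined for 6 of the 8 members, and Tubb2b and Tubb6 were not among them. Capitals mark a CCAAT box (CCAAT), a GC box (GGGCGG) or a TATA box (TATAAA) on either strand.
Tubb2a (GRCm38.p6, chr13:34078009-34078258, minus strand): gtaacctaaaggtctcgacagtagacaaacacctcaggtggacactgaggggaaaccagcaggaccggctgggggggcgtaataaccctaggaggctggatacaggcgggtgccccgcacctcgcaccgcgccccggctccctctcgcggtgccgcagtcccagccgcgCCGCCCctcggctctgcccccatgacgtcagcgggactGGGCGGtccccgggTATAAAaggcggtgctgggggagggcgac
Tubb3 (GRCm38.p6, chr8:123411303-123411552, plus strand): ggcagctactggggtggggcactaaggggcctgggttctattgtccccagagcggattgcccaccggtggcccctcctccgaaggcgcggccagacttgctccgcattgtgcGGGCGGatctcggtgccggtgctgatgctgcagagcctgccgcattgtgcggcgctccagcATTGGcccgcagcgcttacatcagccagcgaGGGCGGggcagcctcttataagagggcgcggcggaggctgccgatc
Tubb4b (GRCm38.p6, chr2:25224703-25224952, minus strand): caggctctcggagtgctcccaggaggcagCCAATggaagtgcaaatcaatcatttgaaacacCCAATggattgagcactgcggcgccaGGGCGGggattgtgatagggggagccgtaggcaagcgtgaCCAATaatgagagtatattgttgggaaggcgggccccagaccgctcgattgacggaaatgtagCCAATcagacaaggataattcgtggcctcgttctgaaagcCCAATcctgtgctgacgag
Tubb5 (GRCm38.p6, chr17:35838302-35838551, minus strand): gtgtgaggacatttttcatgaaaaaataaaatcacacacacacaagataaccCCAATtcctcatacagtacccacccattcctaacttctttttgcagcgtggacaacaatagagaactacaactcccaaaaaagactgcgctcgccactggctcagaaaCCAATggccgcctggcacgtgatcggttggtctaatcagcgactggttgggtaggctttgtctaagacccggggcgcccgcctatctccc
The Tubb2a sequence held a TATA box 29 bases before the start and 2 GC boxes, with no CCAAT box. In Tubb3 there were 2 GC boxes and 1 CCAAT box, on the minus strand. The Tubb4b sequence held 5 CCAAT boxes and 1 GC box, and Tubb5 held 2 CCAAT boxes and neither of the others. Of all 32851 sequences in the table, 33.8% held a CCAAT box, 32.7% a GC box and 12.4% a TATA box. The G and C content was 68.4% in Tubb2a, 68% in Tubb3, 54.4% in Tubb4b and 49.2% in Tubb5, against a median of 52.4% in the table. The AP-1 site TGACTCA was in none of the 6 member sequences and in 4.46% of all. The STAT element TTCNNNGAA was likewise absent from the 6 and present in 7.02% of all, and the heat shock element GAANNTTCNNGAA in 0.466%. The antioxidant response element TGACNNNGC, held by 10.2% of all, was found before Tubb1 and Tubb4a.

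In the inactivated epidermis 4 of the 8 beta-tubulin genes were more than 2-fold higher than in the controls, namely Tubb3, Tubb6, Tubb2b and Tubb2a. Tubb4a was slightly higher, while the isotypes made in most tissues, Tubb5 and Tubb4b, and the platelet isotype Tubb1 differed little. For each gene the brightest of its probe sets on average was used. Of all genes, 2.58% were higher by at least 1 on the log2 scale, and 3.42%, with 0 members among them, were lower by as much. Of the members, 5 lay past limma's threshold as higher (adjusted p below 0.05), beside 15.5% of all genes, and 0 as lower, beside 18.9% (0 also at an unadjusted p below 0.05). The same 5 genes had groups that did not overlap, with all inactivated arrays above all controls, as had 14% of all genes. At an unadjusted p below 0.05, 1 of the 16 member probe sets was lower, the second one of Tubb5. The median difference over the members was 0.76, and over all genes 0.03. These counts repeat the values with which the family was chosen, and nothing is read from them.

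**Figure D1:**
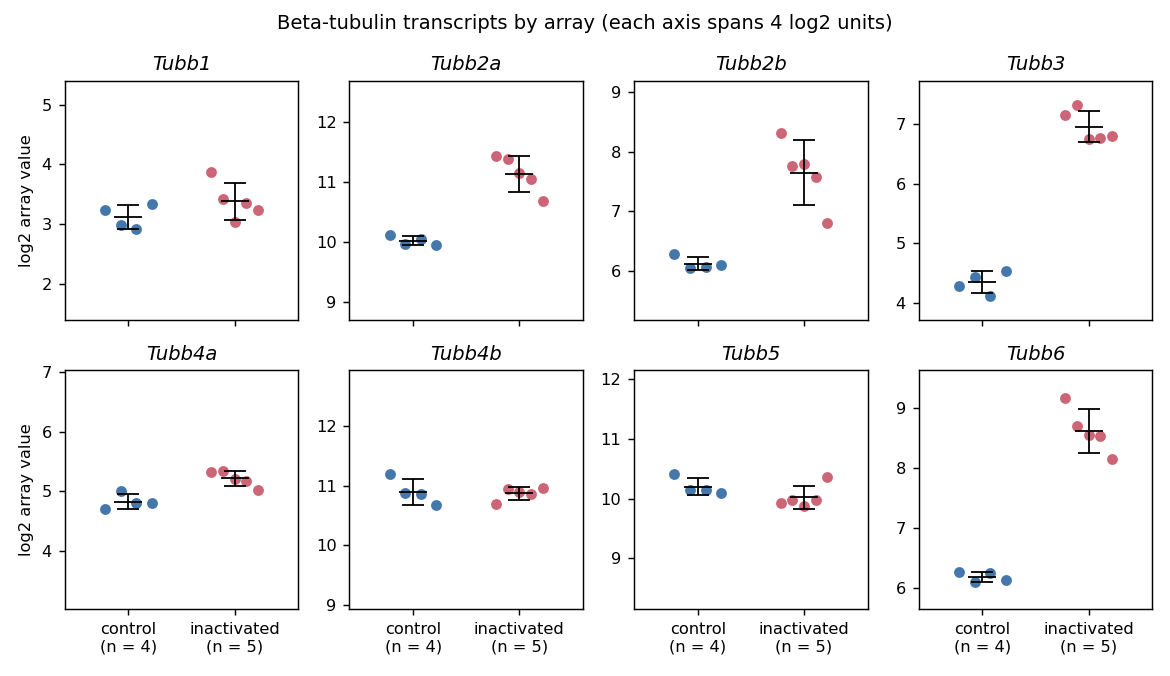
Log2 array value (y axis) of each beta-tubulin gene on the 4 control arrays (blue) and the 5 inactivated arrays (red), with the mean and SD in black. Every panel spans 4 log2 units around its own centre, so heights can be compared between panels and levels cannot. The groups stand furthest apart in Tubb3 and Tubb6, and they overlap in Tubb1, Tubb4b and Tubb5.

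Tubb3, the neuronal isotype, showed the largest difference. It read 7.14, 7.31, 6.75, 6.77 and 6.80 on inactivated arrays 1 to 5, and 4.28, 4.44, 4.12 and 4.54 on control arrays 1 to 4. The lowest inactivated array thus lay 2.21 above the highest control. The mean was 6.95 ± 0.26 (SD, n = 5) against 4.34 ± 0.19 (SD, n = 4), a difference of 2.61 ± 0.14 (SE) or 6.11-fold. This was the difference of rank 62 from the highest among the 18193 genes. The control values lay on both sides of the array medians, which ran from 4.34 to 4.42. No detection call was used, so whether they stand above background was not tested, and the fold may be too small.

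Tubb6 read 9.18, 8.70, 8.55, 8.54 and 8.15 on the inactivated arrays. On the controls it read 6.26, 6.09, 6.24 and 6.13. The controls were tight and every inactivated array lay at least 1.89 above them, with inactivated replicate 1 highest and replicate 5 lowest. The means were 8.62 ± 0.37 (SD, n = 5) and 6.18 ± 0.08 (SD, n = 4), a difference of 2.44 ± 0.17 (SE) or 5.43-fold, rank 72 among all genes. The other Tubb6 probe set, 1446353_at, differed by 0.43 ± 0.12, with touching groups of 4.63 to 5.07 and 4.23 to 4.63. Both probe sets were higher, but by different amounts, and the mean over them gave 1.44 ± 0.12.

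Tubb2a and Tubb2b encode closely similar proteins and lie next to each other on chromosome 13. Tubb2b read 8.31, 7.76, 7.79, 7.57 and 6.80 on the inactivated arrays and 6.28, 6.05, 6.07 and 6.10 on the controls. The difference was 1.52 ± 0.24 (SE), or 2.86-fold, from 6.13 ± 0.11 (SD, n = 4) to 7.64 ± 0.55 (SD, n = 5). Inactivated replicate 5 lay nearest the controls, 0.51 above the highest of them.

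For Tubb2a, inactivated arrays read 11.43, 11.38, 11.15, 11.05 and 10.68, and controls 10.12, 9.96, 10.04 and 9.95. Again replicate 5 was the lowest of the inactivated group and still 0.56 above the highest control. The difference was 1.12 ± 0.14 (SE), or 2.17-fold, from 10.02 ± 0.08 (SD, n = 4) to 11.14 ± 0.30 (SD, n = 5). This probe set, 1427347_s_at, is of a kind that can match several transcripts. The second one, 1427838_at, is not, and it differed by 0.86 ± 0.18, with inactivated replicate 5 equal to the highest control at 5.42.

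Tubb4a, an isotype of brain, was higher by 0.39 ± 0.09 (SE). It ranged from 5.03 to 5.34 on the inactivated arrays and from 4.71 to 5.00 on the controls, so the gap between the groups was 0.03. Tubb1, of platelets, ranged from 3.03 to 3.87 and from 2.92 to 3.34. These ranges overlap, the difference was 0.26 ± 0.16, and both lie below the array medians.

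The isotypes made in most tissues differed little. Tubb5, which is the main beta-tubulin of many dividing cells, read 9.92, 9.97, 9.88, 9.97 and 10.36 on the inactivated arrays and 10.41, 10.15, 10.14 and 10.09 on the controls. Inactivated replicates 1 to 4 lay below all controls, whereas replicate 5 lay among them, giving -0.17 ± 0.11 (SE). The other Tubb5 probe set, 1455719_at, showed the same arrangement with -0.27 ± 0.12. Without inactivated replicate 5 these differences were -0.26 and -0.36. The count of member genes past the threshold as lower then went from 0 to 1, which tests nothing. Over all probe sets, leaving out single arrays gave 5753 to 7381 lower, against 7202 with all arrays.

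Tubb4b read 10.69, 10.95, 10.89, 10.86 and 10.97 on the inactivated arrays and 11.19, 10.88, 10.86 and 10.67 on the controls. The groups were interleaved and the difference was -0.03 ± 0.10 (SE). Tubb4b has 6 probe sets, and the other 5 of them differed by 0.64, 0.27, -0.00, 0.15 and 0.17. All of these 5 but the first lie below the middle of all probe set means, where signal near background may limit them, which was not tested. The largest difference, that of 1456470_x_at, came with groups that did not overlap, 6.42 to 6.84 against 5.88 to 6.17. Of the 16 member probe sets, 5 bear the suffix _s_at or _x_at and 4 of these are assigned to Tubb4b. They can bind related transcripts, so signal from other beta-tubulins in them cannot be told apart from Tubb4b.

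**Figure D2:**
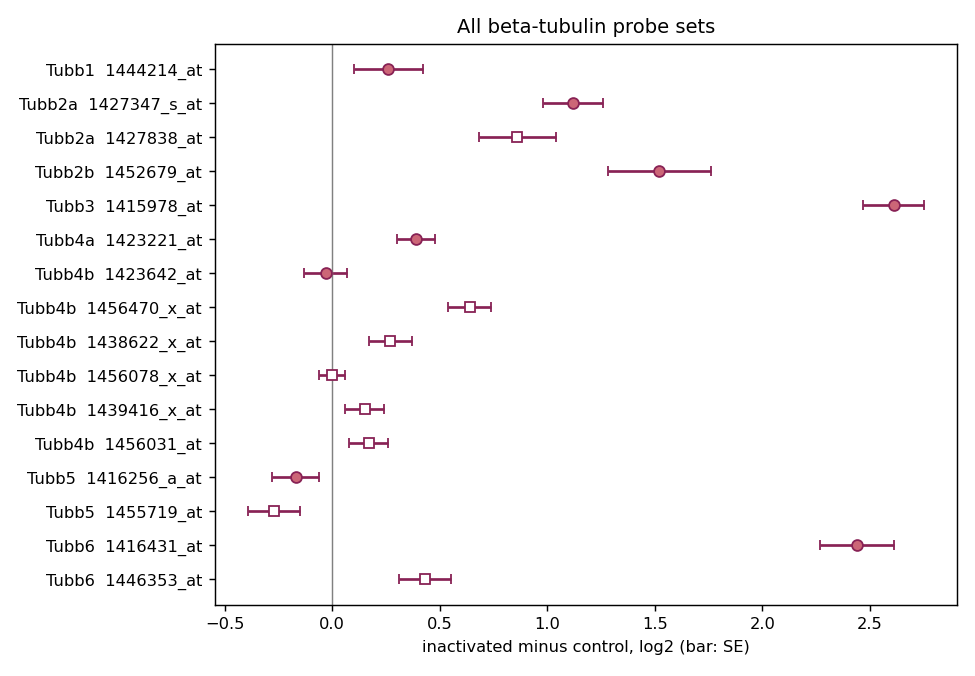
Difference between the inactivated and control groups (x axis, log2, bars show the SE over 5 and 4 arrays) for each of the 16 beta-tubulin probe sets. Filled circles are the probe sets with the highest mean of each gene and open squares the others. The paired probe sets of Tubb2a lie at 1.12 and 0.86 and those of Tubb6 at 2.44 and 0.43, while those of Tubb4b spread from -0.03 to 0.64.

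The members did not all keep the same order across the inactivated arrays. Against the control mean, replicate 5 was higher by 0.66 in Tubb2a, 0.67 in Tubb2b and 1.97 in Tubb6, the lowest of the group in each. In replicate 1 the same genes were higher by 1.42, 2.18 and 2.99, the highest of the group in each. Tubb3 did not follow this order. Its values were 2.80 in replicate 1, 2.97 in replicate 2 and 2.41, 2.43 and 2.45 in the remaining ones. Tubb5 ran opposite, with 0.17 in replicate 5 and -0.31 to -0.22 in the others.

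**Figure D3:**
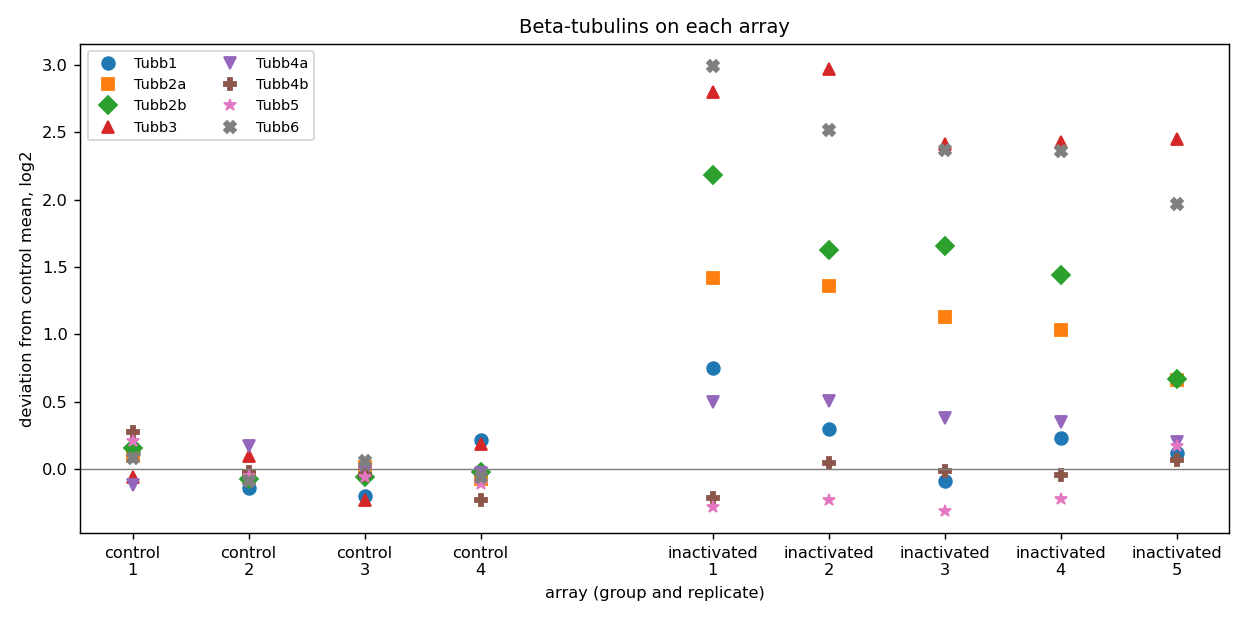
Deviation of each beta-tubulin gene from its control mean (y axis, log2) on each of the 9 arrays (x axis). Tubb3 and Tubb6 stand at 1.97 or more on every inactivated array, Tubb2a and Tubb2b fall to 0.66 and 0.67 on inactivated replicate 5, and Tubb4b and Tubb5 lie between -0.31 and 0.17 on the inactivated arrays.

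Probe sets of Xist and of Y-linked genes gave the sex of the mice, with 3 females and 2 males in the inactivated group and 1 female and 3 males among the controls; the labels are silent on it. Within the males the differences were 2.86 for Tubb3, 2.78 for Tubb6, 1.96 for Tubb2b and 1.42 for Tubb2a. Within the females, with 1 control, they were 2.49, 2.15, 1.10 and 0.84. All 4 genes were thus higher in both sexes. With 1 female control, whether the differences depend on sex could not be judged.

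Genes with profiles most like those of the higher members were sought among all other genes, by the root mean square distance between deviations from the control mean over the 9 arrays. Nearest to Tubb3 were Duoxa1 (distance 0.227) and Duox1 (0.269), the maturation factor and the enzyme that make hydrogen peroxide at epithelial surfaces, and the phospholipase Pla2g4e (0.273). Tubb6 itself lay at 0.276 from Tubb3. Nearest to Tubb6 were the kallikrein Klk6 (0.218), the retinol-binding protein Rbp7 (0.230) and Duoxa1 (0.247). For Tubb2a they were the phosphatase Dusp5 (0.087), the cholesterol sulfotransferase Sult2b1 (0.091) and the transglutaminase Tgm1 (0.098). For Tubb2b they were Fchsd1 (0.118), Tiparp (0.180) and the palmitoyltransferase Zdhhc13 (0.185). These genes were picked for likeness, so no test was made of it.

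Chromosomal neighbours, chosen after their values were seen, were measured for Tubb2a, Tubb2b and Tubb3 and differed by less. Mc1r, the melanocortin receptor, and Def8 flank Tubb3 and differed by 0.19 ± 0.08 (SE, adjusted p = 0.12) and 0.18 ± 0.08 (adjusted p = 0.129). Bphl, on the far side of Tubb2a, fell by 0.47 ± 0.09 (SE, adjusted p = 0.00294). Psmg4, beside Tubb2b, differed by 0.12 ± 0.08 (adjusted p = 0.286).

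Each beta-tubulin pairs with an alpha-tubulin, and of these a few could be measured one by one. Tuba8 rose by 0.70 ± 0.09 (SE, adjusted p = 0.000292) and Tuba4a by 0.34 ± 0.08 (adjusted p = 0.01). Tuba1a, an abundant isotype of the developing nervous system, fell by 0.86 ± 0.11 (adjusted p = 0.00032). It read 9.95, 10.37, 10.54, 10.35 and 10.13 on the inactivated arrays and 11.10, 11.07, 11.23 and 11.09 on the controls, without overlap. Its single probe set is of the _x_at kind. Tuba3b differed by 0.17 ± 0.13 (adjusted p = 0.363). The list of 8 alpha-tubulins thus had 4 measured members, of which 2 rose, 1 fell and 1 did not pass. A further 2 probe sets that match several alpha-tubulin genes rose by 0.64 and 0.38.

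Across 10 lists of tubulin and microtubule genes other than beta-tubulins, 187 genes were measured, of which 29 rose, 33 fell and 125 did not pass. Their median difference was 0.02. These shares, 15.5% and 17.6%, stood beside 15.5% and 18.9% over all genes. With array medians subtracted the counts were 40 and 29, and over all probe sets they moved the same way, from 5698 higher and 7202 lower to 7443 and 6342. Only 2 of these genes were higher by at least 1 and 4 lower by at least 1. The highest of all was Map6, at 1.06. Counts without 1 array are given for single lists below. They stand beside 4161 to 5931 higher and 5753 to 7381 lower over all probe sets.

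**Figure D4:**
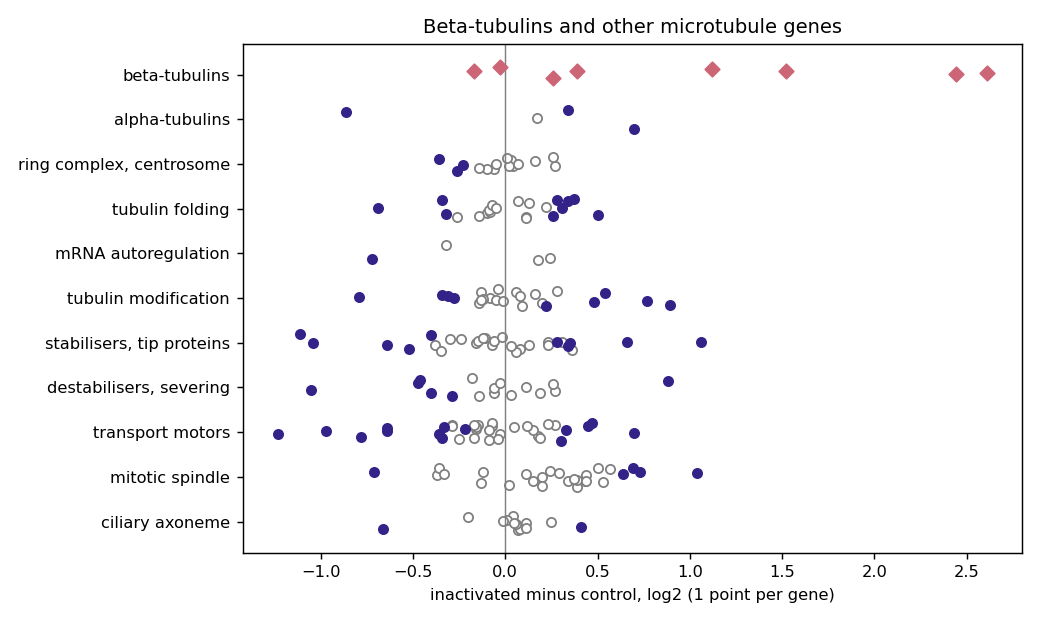
Difference between the inactivated and control groups (x axis, log2) of every measured gene, 1 point per gene, in the beta-tubulins (diamonds) and 10 lists of other microtubule genes (circles). Filled circles passed limma's test and open circles did not, and no test is shown for the beta-tubulins. Tubb3 and Tubb6 at 2.61 and 2.44 lie beyond every gene of the other lists.

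Genes that control tubulin synthesis and folding showed small changes. Ttc5, which binds nascent tubulin and triggers decay of its mRNA, fell by 0.72 ± 0.09 (SE, adjusted p = 0.000213). It read 6.96, 7.02, 7.35, 7.19 and 7.17 on the inactivated arrays and 7.89, 7.75, 7.87 and 7.95 on the controls, without overlap, but its second probe set differed by -0.04. Of the other 3 measured genes of tubulin mRNA autoregulation none passed. No gene of this list rose in limma's test, 2 did at an unadjusted p below 0.05, and 1 did without control replicate 1 or without inactivated replicate 1. Without inactivated replicate 2, 2 genes of the list fell. Folding factors, which bring tubulin into its native state, had 6 of 21 members higher, 3 lower and 12 not passing. The prefoldin subunit Pfdn1 and the chaperonin subunit Cct3 rose by 0.50 ± 0.09 (adjusted p = 0.00272) and 0.37 ± 0.07 (adjusted p = 0.00225). Pfdn5 and the cofactor Tbce fell by 0.69 ± 0.07 (adjusted p = 5.83e-05) and 0.34 ± 0.08 (adjusted p = 0.0108). The other probe sets of Pfdn5 read -0.51 to -0.03 and those of Cct3 -0.01 to 0.87. With the replicate number as a block, 3 folding genes rose.

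Microtubules are nucleated at the gamma-tubulin ring complex. A list of its genes, the delta- and epsilon-tubulins and centrosomal scaffolds had 3 of 15 lower, 12 not passing and none higher in limma's test (1 at an unadjusted p below 0.05). Mzt1, a small ring complex subunit, fell by 0.36 ± 0.08 (adjusted p = 0.00681), and the scaffold pericentrin (Pcnt) by 0.26 ± 0.07 (adjusted p = 0.0189), with its other probe set at 0.02. The scaffold Akap9 fell by 0.23 ± 0.07 (adjusted p = 0.0315). The call of Pcnt was lost without control replicate 3 or 4, where 1 gene of the list fell. With the block 1 gene of the list fell too.

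Of 23 genes for enzymes that modify tubulin and their partner proteins, 5 rose, 4 fell and 14 did not pass. The deacetylase Hdac6 rose by 0.89 ± 0.10 (adjusted p = 0.000107), while the deacetylase Sirt2 fell by 0.28 ± 0.06 (adjusted p = 0.00856). Ttll9 of the tubulin ligase-like family rose by 0.77 ± 0.10 (adjusted p = 0.000341). Ttll11, of the same family, fell by 0.79 ± 0.15 (adjusted p = 0.00257), but its other 3 probe sets differed by 0.14 to 0.23. Without control replicate 1, 3 or 4, or inactivated replicate 3 or 5, 3 genes of this list rose. With the block 2 genes fell.

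Stabilisers and tip proteins had 5 of 29 members higher, 5 lower and 19 not passing. Map6, a stabiliser of neuronal microtubules, rose by 1.06 ± 0.23 (adjusted p = 0.00554) and the spectraplakin Macf1, which links microtubules to actin, by 0.66 ± 0.07 (adjusted p = 0.000109). Dystonin (Dst), which includes the hemidesmosome linker of basal keratinocytes, fell by 1.11 ± 0.10 (adjusted p = 2.55e-05). Camsap3, which anchors microtubule minus ends in epithelial cells, fell by 1.04 ± 0.12 (adjusted p = 0.000173). Without control replicate 2, 3 genes of this list rose, and without control replicate 3 or 4, 2 rose.

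Among destabilisers and severing proteins 1 of 16 rose, 5 fell and 10 did not pass. Stathmin (Stmn1), which sequesters tubulin, fell by 1.05 ± 0.22 (adjusted p = 0.00476), and the severing enzyme spastin (Spast) by 0.47 ± 0.08 (adjusted p = 0.0012), with its other probe set at -0.03. The depolymerising kinesin Kif18b rose by 0.88 ± 0.11 (adjusted p = 0.000305). Without control replicate 2, 3 or 4 or inactivated replicate 2, 3 genes of this list fell.

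Motors of transport had 5 of 35 members higher, 9 lower and 21 not passing. The dynein light chain Dynll2 and the kinesin light chain Klc3 fell by 0.97 ± 0.12 (adjusted p = 0.000262) and 0.78 ± 0.11 (adjusted p = 0.000499), but the other Dynll2 probe set differed by -0.02. Kif13b rose by 0.70 ± 0.10 (adjusted p = 0.000544). Pafah1b1, a dynein regulator, rose by 0.47 ± 0.08 (adjusted p = 0.00122) on its brightest probe set, while its other 4 read -0.42 to -0.01.

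Mitotic spindle genes, whose microtubules divide the chromosomes, had 4 of 27 members higher, 1 lower and 22 not passing, with a median of 0.34. The kinase Aurka rose by 1.04 ± 0.24 (adjusted p = 0.00811), with its other probe set at -0.19, and the mitotic activator Cdc20 by 0.64 ± 0.12 (adjusted p = 0.00286). The spindle pole protein Numa1 fell by 0.71 ± 0.10 (adjusted p = 0.000401), and its other 2 probe sets read -0.83 and 0.05. Inactivated replicate 5 had a median of 0.96 over this list against the control mean. Without inactivated replicate 1, 11 spindle genes rose. Without inactivated replicate 2 or control replicate 2, 3 or 4, or with the block, 2 rose. In the same list 4 fell without inactivated replicate 5, and 2 fell with the block. Ciliary genes, a check on axonemal microtubules, had 1 of 13 higher (Dnah5, 0.41 ± 0.09, adjusted p = 0.00747), 1 lower (Ift172, -0.66 ± 0.14, adjusted p = 0.00605) and 11 not passing.

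Several beta-tubulins mark other cell types, so the markers of those cells are set beside them. In whole epidermis, fewer cells of a type and less RNA per cell cannot be told apart. All 7 markers of basal keratinocytes and 9 of 10 of suprabasal ones lay above the array median on every array. Of 12 neuron markers, 2 were higher, 1 lower and 9 did not pass, and 10 lay below the array median on all 9 arrays. Their summed linear level was 141 to 152 in the inactivated group and 130 to 144 in the controls. Snap25, Nefl, Nefm, Nefh, Uchl1 and Scn9a were below the lower quartile of values on every array. The 2 neuron markers that rose, Prph and Nefh, did so by 0.34 (adjusted p = 0.0305) and 0.32 (adjusted p = 0.0333). The part of neurons in the Tubb3 level was not tested. Of 7 Schwann cell markers 1 was higher, 1 lower and 5 did not pass. Their summed level was 713 to 787 in the inactivated group and 948 to 1085 in the controls. Most of this sum is Egr2, which fell by 0.71 ± 0.09 (adjusted p = 0.000203), and the median difference of the list was 0.08.

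Melanocyte markers, by contrast, rose in 7 of 8 genes, with Mitf not passing. Dct and Mlana rose by 2.78 ± 0.39 (adjusted p = 0.000521) and 2.21 ± 0.38 (adjusted p = 0.00163), and the summed level was 434 to 778 against 306 to 355. Dct was highest on inactivated replicates 2 and 3, at 7.77 and 7.54, and lowest of the group on replicate 5, at 5.67. Tubb3 on these arrays was 7.31, 6.75 and 6.80. The part of melanocytes in the Tubb3 level was not tested. Platelet markers had 3 of 9 higher, 1 lower and 5 not passing, with summed levels of 523 to 848 and 642 to 834. Most of the control sum is Pf4, the one that fell (by 0.64, adjusted p = 0.046), while Gp1bb, Gp5 and Gp9 rose by 1.00, 0.51 and 0.40, and the median difference was 0.16. Merkel cell markers had none of 9 passing in limma's test (2 higher at an unadjusted p below 0.05), with 107 to 138 and 93.2 to 115.

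The counts of the remaining lists, as higher and lower of those measured, were 1 and 3 of 7 in basal keratinocytes and 1 and 2 of 10 in suprabasal ones. They were 1 and 9 of 10 for fibroblasts, 1 and 1 of 8 for endothelium and 1 and 5 of 10 for smooth and skeletal muscle together. Acta1 and Myh4 of skeletal muscle did not pass. On inactivated replicate 4 they read 8.96 and 7.88, against at most 5.74 and 3.68 on any other array. Macrophages had 6 of 9 lower, Langerhans cells 5 of 8, T cells 5 of 7 and sebocytes 3 of 8, with none higher in any of the 4 lists (0 also at an unadjusted p below 0.05). Neutrophil markers had 4 and 1 of 9. Those higher were S100a8 and S100a9, by 3.40 and 4.54, with Mmp8 and Cxcr2. Csf3r, Elane, Camp and Ngp did not pass, and Mpo fell by 1.41. Hair follicle markers had 3 higher and 0 lower of 9 (2 lower at an unadjusted p below 0.05). The part of these cells in the beta-tubulin differences was not tested.

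Alox12b, the targeted gene, was 0.61 ± 0.14 (SE) higher in the inactivated group on its single probe set (limma, adjusted p = 0.00694). Where this probe set lies relative to the floxed part is not given in the sources used here, so it is no check of the deletion. The groups are as the labels name them.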

How the data were processed

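The deposited table holds log2 values of 45037 probe sets, 1 column per array, summarised by the authors with the R package affy, which the submitters' processing notes name without a version. How background was corrected and arrays normalised and summarised is not given in the sources used here, and the log base is unstated. Array maxima of 13.47 to 13.53 exceed 11.1, which a natural log of scanner values cannot pass, so log2 was assumed. Platform annotation gave 34945 probe sets 1 gene symbol; 932 with several and 9160 unlisted named no gene. The probe set of highest mean stood for each gene, and it is not always the most specific one.

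Groups were compared by limma 3.58.1 (lmFit, eBayes, two-sided, residual df 7) in R 4.3.3, on all 9 arrays without covariates or filter. P-values were adjusted (Benjamini-Hochberg) across the whole table and called below 0.05. For members, means, SD, differences and SE describe the groups, and the number past the threshold is counted without being read as a test. The mice are biological replicates per the labels. Arrays that share a replicate number did not deviate together, with correlations of -0.268, 0.007, -0.094 and 0.078 over probe sets. The steps were tested on simulated data. For arrays no read depth applies, and the number of arrays limits the precision.

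The members and all gene lists were chosen with earlier results of these data known. Named genes were every member probe set, every alpha-tubulin, the 2 risen and 2 fallen genes of lowest adjusted p in each other list, the 3 genes most alike to each member that differed by at least 1, and the 2 of largest difference in each marker list. Of the last, those of neurons, Schwann cells, platelets, melanocytes, muscle and neutrophils are given in part. A few markers and Akap9 were singled out after their values were seen. Other marker lists are given as counts. Promoters are from RefSeq (GRCm38.p6). Alternatives were other normalisations, a filter on dim probe sets, other variance models, the replicate block, sex, other probe set choices and leaving out arrays.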

Additional observations from a re-analysis of the deposited data

Results flagged for a closer look

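Among 96 groups of arrays examined, those of the member probe sets, Alox12b and the named microtubule genes, 3 held an array far from the others by Dixon's criterion, which chance meets in about 1 of 20 groups. Tubb5 (1416256_a_at) on inactivated replicate 5 was 10.36, with the next value of the group at 9.97. Pfdn5 on the same array was 9.15, with the next at 8.99. Kif18b on control replicate 1 was 5.38, with the next at 5.02.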

How the results depend on the processing

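The differences of the members kept their direction under every other setting on all or all but 1 of the arrays, apart from 2 Tubb4b probe sets near 0 (1423642_at, -0.11 to 0.20, and 1456078_x_at, -0.06 to 0.04). Tubb3 ranged from 2.52 to 2.72, Tubb6 from 1.44 to 2.56, Tubb2b from 1.35 to 1.73 and Tubb2a (1427347_s_at) from 0.99 to 1.24. The lowest values of Tubb6 and Tubb2a, and the highest of 1423642_at, are those of the mean over all probe sets of the gene. With the replicate number as a block 23 microtubule genes rose and 27 fell, and 4679 probe sets rose and 6329 fell. The block ended the calls of Pcnt (adjusted p = 0.0605) and Sirt2 (adjusted p = 0.0649). Akap9 lost its call as well, since Mzt1 alone of its list still passed. No other named microtubule gene changed its call. Markers, neighbours and the genes of like profile were not followed in this way. Leaving out single arrays gave 20 to 35 risen and 26 to 37 fallen microtubule genes. Over all probe sets it gave 4161 to 5931 risen and 5753 to 7381 fallen. Within male mice, tried after seeing the data, 22 microtubule genes rose and 20 fell. The cause was not tested, though fewer arrays were used. Pafah1b1 turned to -0.05 with the mean of all its probe sets, which differ in sign. Pcnt (-0.12) and Ttll11 (-0.06) lost their calls in the same way, as did Pcnt with quantile normalisation (-0.14). After quantile normalisation 1 gene of the ring complex and centrosome list and 2 autoregulation genes rose, against 0 in both lists above. Without _s_at and _x_at probe sets no alpha-tubulin fell, because the single probe set of Tuba1a was then left out. Of the 16 member probe sets, 5 lie below the middle of all probe set means, that of Tubb1 among them. Signal near background may limit these, but whether they stand above background was not tested.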
